A study of Mus musculus with 6 samples.

Results

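The 10 genes described here are targets and effectors of the integrated stress response that are commonly used to read its activity: Atf3, Atf4, Atf5, Ddit3, Trib3, Asns, Chac1, Fgf21, Gdf15 and Sesn2. They were taken by symbol from 54532 mouse genes with an Ensembl identifier in a raw read count table of liver RNA and the rule used no measured value, although the list was proposed with earlier results of these data known. All 10 passed the filter on low counts that left 12795 genes for testing. The table held 6 libraries in 2 groups of 3. HFD mice (HFD 1 to 3) received a high-fat diet, and HFD+allantoin mice (libraries 4 to 6) received the same diet and, after its first 4 weeks, allantoin, an oxidation product of uric acid, dissolved in what they drank for 4 further weeks. All were wild-type C57BL/6J males, 8 weeks old when the diet began, and the study asked whether allantoin worsens fatty liver under that diet. The study names its high-dose group as the one sequenced, and its methods give 0.3 mg/mL as that dose. The labels list both 0.06 and 0.3 mg/mL for every library. No library came from mice on a normal diet in the table used here, so each difference is between HFD+allantoin and HFD only. The labels give no batch or date, and the p-values measure the spread between 3 libraries a group.

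The integrated stress response begins with a kinase that phosphorylates the translation factor eIF2α: PERK in endoplasmic reticulum stress, GCN2 in amino acid shortage, PKR with double-stranded RNA and HRI with haem shortage or mitochondrial stress. Most translation then slows while ATF4 mRNA is translated better, and ATF4 protein turns on genes for amino acid supply, further transcription factors and, in liver, the secreted hormones FGF21 and GDF15. Much of the control of ATF4 itself is therefore at translation, which a count of mRNA reads does not measure. ATF4 pairs with C/EBP proteins on a composite site, the C/EBP-ATF response element, whose core can be written TGATGNAA.

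RefSeq promoters on GRCm38.p6 (250 bases before to 50 after each start) were found for all 10 members, and TGATGNAA, read on both strands, stood in those of 5: Atf3, Trib3, Asns, Chac1 and Fgf21. The same letters were in 3.97% of all 32851 promoters of that length. The cAMP response element palindrome TGACGTCA, to which ATF and CREB proteins can bind, was in none of the member windows and in 1.79% of all promoters. The 4 members with a match in the 250 bases before the start are printed below, 5′ to 3′ on the gene's own strand with the match in capitals, because they hold the sequence that the shared regulator is known to read. The windows are chr1:191183334-191183583 on the minus strand for Atf3, which lies inside the annotated gene, chr6:7693210-7693459 on the minus strand for Asns, chr2:119350992-119351241 on the plus strand for Chac1 and chr7:45615491-45615740 on the minus strand for Fgf21.
Atf3: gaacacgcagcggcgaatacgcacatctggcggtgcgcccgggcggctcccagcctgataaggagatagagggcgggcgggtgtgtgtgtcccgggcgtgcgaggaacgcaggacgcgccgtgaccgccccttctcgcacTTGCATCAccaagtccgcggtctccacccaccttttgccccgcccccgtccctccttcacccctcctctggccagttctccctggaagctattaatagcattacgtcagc
Asns: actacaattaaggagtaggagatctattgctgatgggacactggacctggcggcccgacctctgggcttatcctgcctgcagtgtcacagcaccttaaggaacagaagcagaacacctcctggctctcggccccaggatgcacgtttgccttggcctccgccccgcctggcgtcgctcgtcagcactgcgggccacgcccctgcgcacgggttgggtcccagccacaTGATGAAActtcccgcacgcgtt
Chac1: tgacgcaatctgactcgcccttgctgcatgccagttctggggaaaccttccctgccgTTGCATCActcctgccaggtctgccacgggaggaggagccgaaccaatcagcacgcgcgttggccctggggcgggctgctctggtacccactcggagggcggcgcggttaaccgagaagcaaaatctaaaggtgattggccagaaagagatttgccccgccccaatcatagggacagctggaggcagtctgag
Fgf21: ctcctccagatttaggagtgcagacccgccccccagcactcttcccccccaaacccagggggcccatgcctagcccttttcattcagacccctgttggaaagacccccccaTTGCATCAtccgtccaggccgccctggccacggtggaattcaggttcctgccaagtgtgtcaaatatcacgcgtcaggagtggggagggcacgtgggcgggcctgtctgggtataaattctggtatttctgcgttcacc
The match read TTGCATCA, the element on the opposite strand, in Atf3, Chac1 and Fgf21, starting at base -110, -193 and -139 from the start. In Asns it was TGATGAAA at base -23. In Trib3 it was TTACATCA, 14 bases past the start. Of these 5 genes only Fgf21 was called lower in HFD+allantoin, while the called members Atf4, Atf5 and Ddit3 had no match. Among all genes tested 13.0% were called lower. The log2 fold changes of all 5, given below, were under 0, as were those of all 10 members and of 51.8% of all genes. Those of Atf3, Trib3 and Chac1 turned sign in 1, 7 and 3 of 15 alternative analyses. A match is a description of letters and not a bound site. Lack of a match speaks only for these letters in the windows searched, and not for sites elsewhere or with other letters.

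Libraries held 11326372 to 12643458 counts in HFD and 11478950 to 14601457 in HFD+allantoin. They differed in composition. The mitochondrial chromosome took 36.5%, 20.2% and 17.9% of counts in HFD 1, 2 and 3 and 7.52%, 6.92% and 11.4% in HFD+allantoin 4, 5 and 6, and trimmed-mean scaling factors ran from 0.756 in HFD 1 to 1.19 in HFD+allantoin 4. Levels below are in CPM, the standard count rate in which a gene's counts are divided by the scaled library total. HFD 2 stood apart in the fat cell genes Adipoq at 51.4 CPM and Plin1 at 49.2 CPM, against at most 0.0733 CPM in every other library. The fat cell markers did not all do so: Cfd was highest in HFD 2 but Car3 in HFD 3. Hepatocyte genes were abundant in all 6, with Alb at 54402 to 82145 CPM.

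Of the 10 members, 4 were lower in HFD+allantoin than in HFD at an adjusted p under 0.05 (edgeR's quasi-likelihood test, Benjamini-Hochberg adjustment over all genes tested): the transcription factors Ddit3, Atf4 and Atf5 and the hormone gene Fgf21. None was called higher. Among all genes tested, 13.0% were called lower, 11.3% higher and 24.3% either way. The log2 fold change was below 0 for 10 of 10 members, against 51.8% of all genes. It was below 0 for 7 of 10 when scaled by library size alone (29.9% of all genes), for 8 without HFD 1, HFD 3 or HFD+allantoin 5, and for 9 with limma-voom, with no filter, with the length and GC trend removed or without HFD+allantoin 6. Its median was -1.05 over the members and -0.03 over all genes. The same 4 members were those whose 3 HFD+allantoin values all lay below the 3 HFD values. Among all genes, 44.3% had no overlap between the groups and 21.9% had none with HFD+allantoin lower.

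Leaving out 1 library or changing the method moved this count. Without HFD 1 it was 2 (10.2% of all genes called lower), without HFD 2 it was 4 (12.5%), and without HFD 3 it was 4 (15.2%). It was 2 without HFD+allantoin 4 (5.29%), 0 without HFD+allantoin 5 (4.27%) and 2 without HFD+allantoin 6 (6.29%), so the calls thinned over all genes when an allantoin library was removed. By method it was 5 with DESeq2 (15.4%), 3 with limma-voom (12.5%), 7 without the filter on low counts (9.03%), 2 with the length and GC trend removed (12.6%) and 2 when scaled by library size alone (5.27%). These counts did not always hold the same members. Without HFD 3, Asns was called and Atf4 was not (adjusted p = 0.0106 and 0.0556 by edgeR). Without HFD+allantoin 6, the 2 were Ddit3 and Gdf15 (adjusted p = 0.0356 and 0.0464 by edgeR). The filter itself had hidden no member. Without it the SE of Atf3 shrank from 1.46 to 0.24 at nearly the same log2 fold change (-3.20 and -3.17). With library size scaling 3162 genes were higher and 674 lower over all, against 1446 and 1666 with trimmed means. All 6 members without a call are given below with their single libraries.

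**Figure D1:**
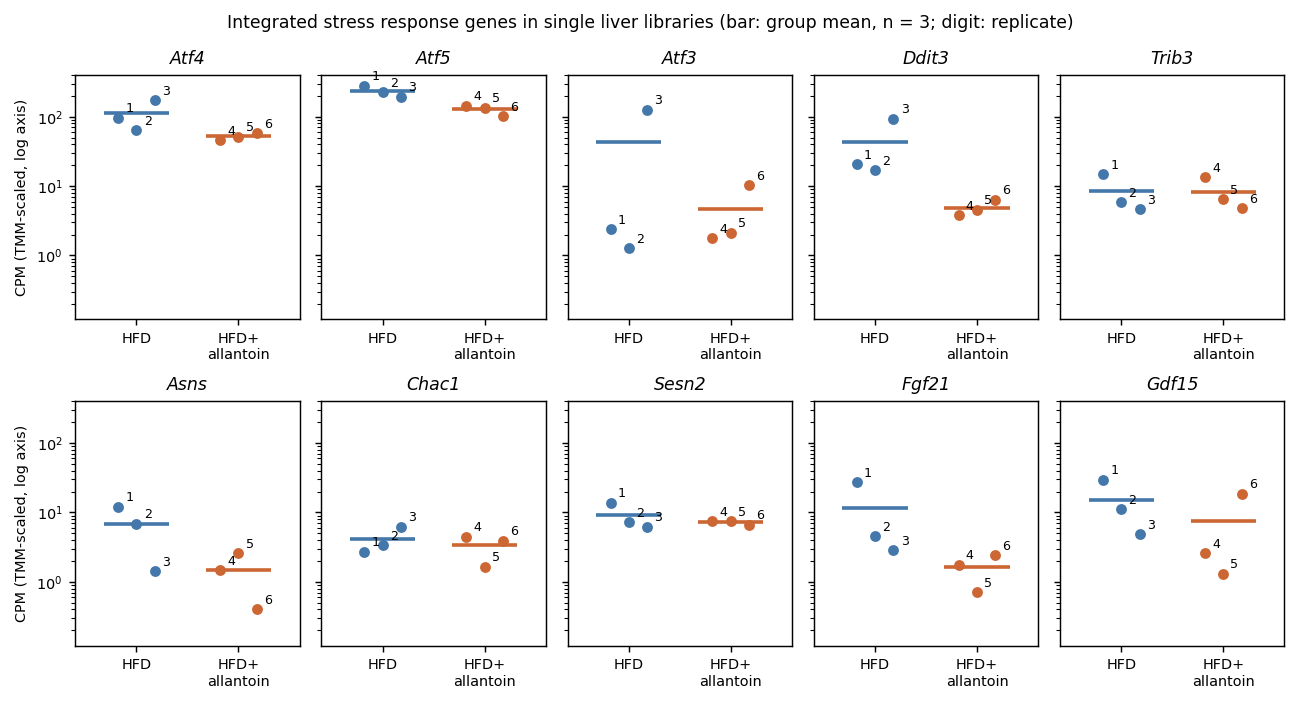
Level of each of the 10 members in each library, as CPM after trimmed-mean scaling on a log axis, with the 3 HFD and the 3 HFD+allantoin libraries as points labelled by replicate number and a bar at each group mean. The 3 HFD+allantoin points lie below the 3 HFD points for Atf4, Atf5, Ddit3 and Fgf21, while the Atf3 point of HFD 3 stands at 126 CPM against at most 10.3 CPM in the other libraries.

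The apical transcription factor of the response, Atf4, is a 2358-base exon model at chr15:80255184-80257541 (GRCm38, GENCODE M21). It measured 96.7, 63.6 and 174 CPM in HFD 1, 2 and 3 and 46.3, 51.8 and 57.8 CPM in HFD+allantoin 4, 5 and 6. All 3 HFD+allantoin libraries were lower than every HFD library, and HFD 3 was the highest. The means were 111 ± 56.5 CPM (SD, n = 3) and 52.0 ± 5.79 CPM (SD, n = 3). Atf4 fell with a log2 fold change of -1.10 (SE 0.32, 95% interval -1.83 to -0.37, adjusted p = 0.0382 by edgeR). HFD 3 carried part of the size: without it the log2 fold change was -0.62 (adjusted p = 0.0556), and leaving out HFD 1 (adjusted p = 0.0580) or HFD+allantoin 4, 5 or 6 (adjusted p = 0.130, 0.122 and 0.0908) also ended the call. So did scaling by library size alone (log2 fold change -0.71, adjusted p = 0.153) and removal of the length and GC trend (-0.96, adjusted p = 0.0803).

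Atf5, a related factor that is translated under eIF2α phosphorylation and is tied to mitochondrial stress, lies at chr7:44812256-44816658 and was the most abundant member. It measured 280.5, 228 and 195 CPM in HFD and 144, 136 and 103 CPM in HFD+allantoin. Every HFD library was above every HFD+allantoin library, and the spread within each group was narrower than the gap between the group means. Means were 234 ± 43.3 CPM and 128 ± 22 CPM (SD, n = 3 each). The gene fell with a log2 fold change of -0.88 (SE 0.20, adjusted p = 0.0161, edgeR). Leaving out HFD+allantoin 5 or 6 ended the call (adjusted p = 0.0637 and 0.0657) at log2 fold changes of -0.92 and -0.74. Scaling by library size alone also ended it (-0.43, adjusted p = 0.158), and with the length and GC trend removed the value was -0.50 (adjusted p = 0.0441). It shares 82 exon bases with Il4i1 and Nup62 on the opposite strand, and whether counting used strand is not given in the sources used here, so reads there cannot be told apart.

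Ddit3, which encodes CHOP, a factor that acts with ATF4 and in lasting stress favours cell death, lies at chr10:127290774-127296288. It measured 20.9, 16.9 and 93.4 CPM in HFD and 3.81, 4.55 and 6.34 CPM in HFD+allantoin. The 3 allantoin libraries were close together and all below HFD 2, the lowest HFD library. Means were 43.7 ± 43.1 CPM and 4.90 ± 1.30 CPM (SD, n = 3 each), 8.92-fold lower by the fit. Its log2 fold change was -3.16 (SE 0.63, 95% interval -4.58 to -1.73, adjusted p = 0.00953 by edgeR). Ddit3 fell and lost its call in 1 of 15 alternative analyses, the one without HFD+allantoin 5 (adjusted p = 0.0523). Without HFD 3, its highest library, the log2 fold change was -1.94 and the adjusted p 0.00209. Its exons overlap Mars by 68 bases and Gm4189 by 13 bases on the opposite strand. A shorter second entry of the same symbol held 0 counts.

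Atf3, an immediate response factor induced by ATF4 and by many other stimuli, lies at chr1:191170296-191218039. It measured 2.40, 1.28 and 126 CPM in HFD and 1.76, 2.13 and 10.3 CPM in HFD+allantoin. The groups overlapped, and 1 library, HFD 3, held nearly all the HFD signal: its raw counts were 22, 13 and 1506 in HFD and 24, 36 and 152 in HFD+allantoin. The log2 fold change was -3.20 with an SE of 1.46 and a 95% interval of -6.50 to 0.10, which did not pass (adjusted p = 0.138, edgeR). Without HFD 3 the sign turned, to 1.37 (adjusted p = 0.22). HFD+allantoin 6 was 5.28-fold above the mean of the other two allantoin libraries.

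**Figure D2:**
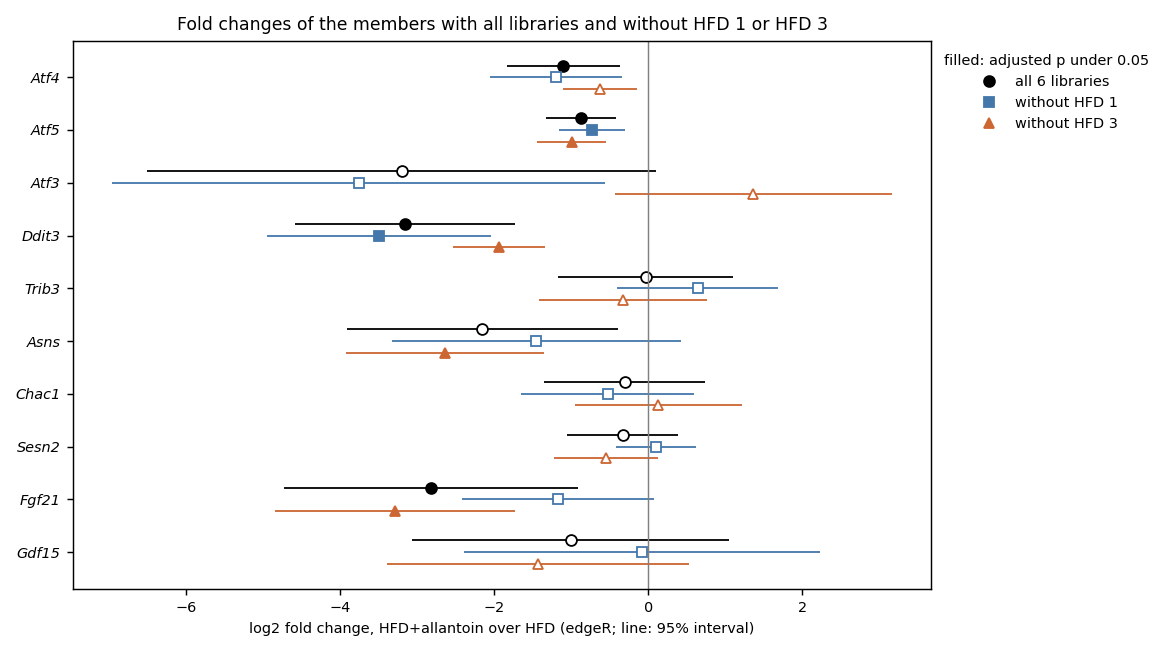
Log2 fold change of HFD+allantoin over HFD for each member with its 95% interval, in all 6 libraries and without HFD 1 or HFD 3, filled where the adjusted p is under 0.05. Ddit3 stays at -1.94 without HFD 3, Fgf21 moves from -2.82 to -1.18 without HFD 1, and Atf3 crosses 0 to 1.37 without HFD 3.

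Among the secreted hormones, Fgf21, a liver hormone of fasting and nutrient stress that acts through FGF receptors with the co-receptor β-Klotho, lies at chr7:45613886-45615490. It measured 27.3, 4.54 and 2.84 CPM in HFD and 1.76, 0.71 and 2.43 CPM in HFD+allantoin. The groups did not overlap, but HFD 3 and HFD+allantoin 6 were close (34 and 36 raw counts) and HFD 1 was 7.39-fold above the mean of HFD 2 and 3. Means were 11.6 ± 13.7 CPM and 1.63 ± 0.867 CPM (SD, n = 3 each). The gene fell with a log2 fold change of -2.82 (SE 0.84, 95% interval -4.72 to -0.91, adjusted p = 0.0403 by edgeR). The call was lost without HFD 1, where the log2 fold change was -1.18 (adjusted p = 0.160), and without HFD+allantoin 4, 5 or 6 (adjusted p = 0.111, 0.137 and 0.0841). It was also lost with limma-voom (-2.21, adjusted p = 0.121) and with the length and GC trend removed (-2.43, adjusted p = 0.0705). Without HFD 3 the log2 fold change was -3.28 (95% interval -4.84 to -1.73, adjusted p = 0.00945 by edgeR). In the same fit Ddit3 was at -1.94 (-2.53 to -1.34). The intervals overlapped, and the difference between the 2 genes was not tested.

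Gdf15, a hormone that lowers food intake through the hindbrain receptor GFRAL, lies at chr8:70629393-70632456. It measured 29.5, 11.2 and 4.85 CPM in HFD and 2.57, 1.30 and 18.6 CPM in HFD+allantoin. The groups overlapped because HFD+allantoin 6 was 9.63-fold above the mean of the other two allantoin libraries. The log2 fold change of -1.01 (SE 0.91) did not pass (adjusted p = 0.449, edgeR). Without HFD+allantoin 6 it was -2.97 (adjusted p = 0.046), and without HFD 1 it was -0.08.

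Of the metabolic targets, Asns, which makes asparagine, lies at chr6:7675169-7693254. It measured 12.0, 6.91 and 1.42 CPM in HFD and 1.47, 2.60 and 0.405 CPM in HFD+allantoin. HFD 1 and 2 were above all allantoin libraries, while HFD 3, at 17 raw counts, was below 2 of them. Its log2 fold change was -2.15 (SE 0.78), with an unadjusted p of 0.0218 and an adjusted p of 0.0729 by edgeR. Without HFD 3 it was -2.64 and passed (adjusted p = 0.011).

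Trib3, a pseudokinase that restrains ATF4 and AKT, lies at chr2:152337422-152344032 and measured 14.8, 5.83 and 4.68 CPM in HFD and 13.4, 6.45 and 4.79 CPM in HFD+allantoin. One library in each group was high and the group means were nearly equal (8.45 ± 5.57 and 8.22 ± 4.58 CPM, SD, n = 3 each). The log2 fold change was -0.03, with a 95% interval of -1.17 to 1.10 that leaves room for a change of over 2-fold either way. Chac1, a glutathione-degrading enzyme at chr2:119351229-119354381, measured 2.73, 3.36 and 6.19 CPM in HFD and 4.47, 1.66 and 3.91 CPM in HFD+allantoin. The groups overlapped, and the log2 fold change was -0.30 (95% interval -1.35 to 0.74, adjusted p = 0.666, edgeR). Sesn2, a stress-induced inhibitor of the growth kinase complex mTORC1, lies at chr4:132492032-132510501 and measured 13.9, 7.21 and 6.19 CPM in HFD and 7.40, 7.45 and 6.68 CPM in HFD+allantoin. Only HFD 1 stood above the rest, and the log2 fold change was -0.33 (95% interval -1.05 to 0.39, adjusted p = 0.474, edgeR). For a single gene, an exact permutation test of 3 libraries against 3 cannot go below p = 0.10, so the calls rest on the spread that edgeR shares across genes. In bulk liver, fewer cells of a type and less RNA per cell cannot be told apart.

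Levels per length were set beside each other as RPKM, the CPM divided by exon length in kilobases (GENCODE M21). By the median of the 6 libraries the order of these levels was Atf5 (85.0 RPKM), Atf4 (25.8), Ddit3 (6.78), Gdf15 (4.32), Trib3 (2.89), Fgf21 (2.77), Chac1 (2.22), Sesn2 (2.10), Atf3 (1.05) and Asns (0.744). Each gene's range over the 6 libraries overlapped that of its neighbour in the order. Atf5 ran from 51.5 to 141 RPKM and Atf4 from 19.6 to 73.7 RPKM. The order of these medians was the same when the longest transcript was used in place of the exon union. By group means the order differed. By HFD means Atf3 (20.1 RPKM) and Fgf21 (12.2 RPKM) stood above Gdf15 (8.19 RPKM). By HFD+allantoin means Ddit3 (2.86 RPKM) stood below Gdf15 (4.05 RPKM) and Trib3 (3.87 RPKM). Some of these means rested largely on 1 library. Atf3 was at 58.5 RPKM in HFD 3, Fgf21 at 28.7 RPKM in HFD 1 and Gdf15 at 10.1 RPKM in HFD+allantoin 6. By the middle HFD value Gdf15 (6.03 RPKM) stood above Fgf21 (4.78 RPKM) and Atf3 (1.12 RPKM). By the middle HFD+allantoin value Ddit3 (2.66 RPKM) stood above Gdf15 (1.39 RPKM) and below Trib3 (3.03 RPKM).

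The members split by which HFD library was highest. HFD 3 held the highest level of all 6 libraries for Atf3, Atf4, Ddit3 and Chac1, and HFD 1 for Atf5, Trib3, Asns, Fgf21, Gdf15 and Sesn2. Over all genes tested, HFD 1 was highest for 27.5% and HFD 3 for 16.0%. HFD 3 stood 68.3-fold above the mean of HFD 1 and 2 for Atf3, 4.95-fold for Ddit3, 2.17-fold for Atf4 and 2.03-fold for Chac1, while Asns and Fgf21 were at 0.150 and 0.179 of that mean. HFD 1 stood 3.68-fold above the mean of HFD 2 and 3 for Gdf15, 2.88-fold for Asns, 2.83-fold for Trib3, 2.07-fold for Sesn2 and 1.33-fold for Atf5. The median SD of log2 CPM within HFD was 1.08 over the members and 0.349 over all genes, and 9 of 10 members were wider than that all-gene median. Within HFD+allantoin the medians were 0.741 and 0.198. The comparison was not matched for level. By mean CPM, Chac1, Asns, Fgf21, Sesn2, Trib3 and Gdf15 stood above 23.8% to 47.2% of the genes tested. Atf3, Ddit3, Atf4 and Atf5 stood above 67.0% to 95.1%. The part of level in this spread was not tested.

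**Figure D3:**
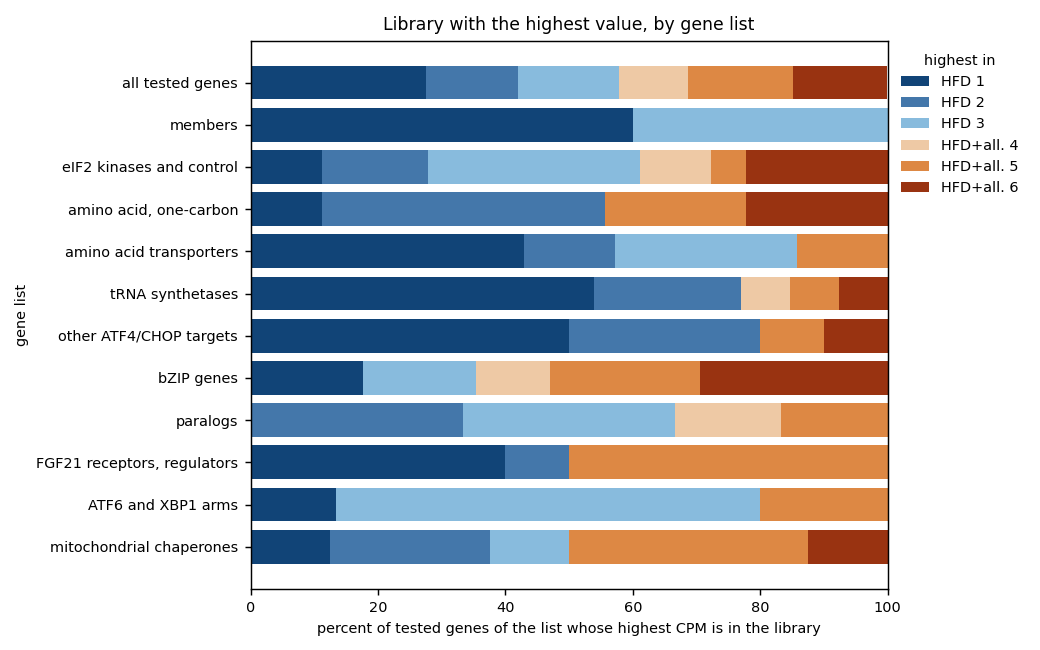
Stacked bars giving, for all genes tested, the members and each related list, the percent of tested genes whose highest CPM falls in each of the 6 libraries. The member bar is split between HFD 1 (6 genes) and HFD 3 (4 genes), while all genes spread over the 6 libraries, with HFD 2 at 14.4% and HFD+allantoin 4, 5 and 6 at 10.7%, 16.6% and 14.7%.

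The genes that moved with HFD 3 were read from whole lists written from general knowledge, and the single genes named in this paragraph were chosen after their values were seen. The ATF6 and XBP1 arms are the other branches of the endoplasmic reticulum stress response. Of 15 tested genes of these arms, which include Xbp1 and Ern1, 10 were highest in HFD 3. The chaperone gene Hspa5 was at 539, 660 and 2090 CPM in HFD and 887, 1130 and 1010 CPM in HFD+allantoin. Trib1, a relative of Trib3, was at 56.2, 41.0 and 708 CPM in HFD and 41.3 to 74.9 CPM in HFD+allantoin. The immediate-early genes Fos, Jun and Junb were high both in HFD 3 and in HFD+allantoin 6, the library where Atf3 and Gdf15 were also high: Fos was at 27.2 and 187 CPM there and at 1.03 to 3.06 CPM in the other libraries. For Jun the values were 102 and 164 CPM against 8.58 to 38.5 CPM, and for Junb 190 and 220 CPM against 26.2 to 43.0 CPM. The biliary marker Sox9 was at 43.6 CPM in HFD 3 and 2.16 to 13.0 CPM elsewhere. HFD 1, where 6 members were highest, also had the highest mitochondrial share of counts. The part of these differences between libraries in the members' levels was not tested.

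**Figure D4:**
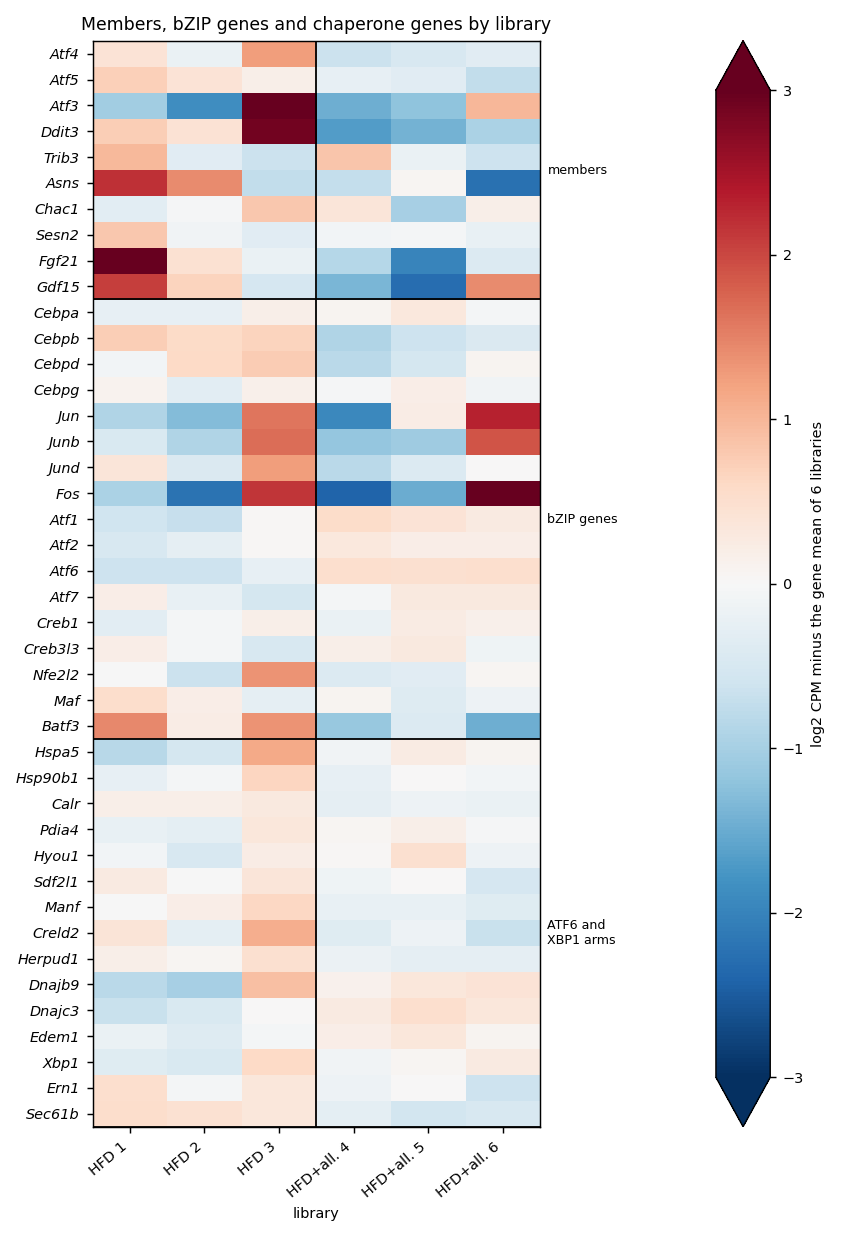
Log2 CPM minus the gene's mean of the 6 libraries for the members, all tested bZIP genes of the list and all tested genes of the ATF6 and XBP1 arms, by library, from blue (below the mean) to red (above it). Atf3 and Ddit3 are red in HFD 3 together with Jun, Junb, Fos and Hspa5, whereas Fgf21 and Asns are reddest in HFD 1.

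Upstream of the members, none of the 4 eIF2α kinase genes was called. The log2 fold change was 0.39 for Eif2ak1 (HRI), 0.04 for Eif2ak2 (PKR), -0.59 for Eif2ak3 (PERK, highest in HFD 3 at 24.8 CPM) and -0.13 for Eif2ak4 (GCN2), with adjusted p of 0.0924, 0.904, 0.286 and 0.714 by edgeR. The phosphatase subunit Ppp1r15a (GADD34), itself an ATF4 and CHOP target, was at 10.8, 7.90 and 18 CPM in HFD and 6.96, 7.10 and 6.01 CPM in HFD+allantoin (log2 fold change -0.87, adjusted p = 0.0661), and the constitutive subunit Ppp1r15b was at -0.11 (adjusted p = 0.694). Of the 18 genes of this list, 3 were called higher and 1 lower, and the list's median was -0.08 on the log2 scale. The 22.2% called was near the 24.3% of all genes. Eif2s3x, the γ subunit of eIF2, was at 8.73 to 17.0 CPM in HFD and 39.6 to 41.7 CPM in HFD+allantoin, and rose (log2 fold change 1.65, adjusted p = 0.00389). Eif2s1, eIF2α itself, rose by 0.75 and the mitochondrial protease gene Oma1 by 0.65 on the log2 scale (adjusted p = 0.0407 and 0.0456). Both lost the call without any 1 library other than HFD 3 (adjusted p from 0.0506 to 0.132 for Eif2s1 and from 0.062 to 0.141 for Oma1). Eif2b1, a subunit of the exchange factor eIF2B, fell by 0.74 on the log2 scale (adjusted p = 0.011), a call lost without HFD+allantoin 4 or 5 (adjusted p = 0.0656 and 0.0637) and with library size scaling (adjusted p = 0.195). Eif2s1 was also lost with the length and GC trend removed (adjusted p = 0.0596), and Oma1 with limma-voom (adjusted p = 0.0507) and with no filter (adjusted p = 0.0735).

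Beyond the members, 39 of 48 listed ATF4 targets were tested, of which 3 were called higher and 6 lower. Their log2 fold changes had a median of -0.30. The 23.1% called was near the 24.3% of all genes. By list it ran from 11.1% for amino acid and one-carbon synthesis to 42.9% for transporters. Of 9 genes of amino acid and one-carbon synthesis, Mthfd1l was called higher, at 0.251 to 1.75 CPM, and lost the call without any 1 library other than HFD 1 (adjusted p from 0.102 to 0.171). With 5 other alternatives, DESeq2 and limma-voom among them, its adjusted p was 0.0508 to 0.102. Of 7 transporters, the glycine carrier Slc6a9 was at 2.51 to 4.91 CPM in HFD and 11.3 to 17.9 CPM in HFD+allantoin, and rose (log2 fold change 1.89, adjusted p = 0.00509), Slc38a2 fell by 0.97 on the log2 scale (adjusted p = 0.0203) and Slc1a5 by 3.48 (adjusted p = 0.0245). The Slc1a5 value rested in part on HFD 2, at 45.0 CPM against 3.85 and 5.02 CPM in HFD 3 and HFD 1, and without that library it was -1.47 (adjusted p = 0.0336). Its call was lost without HFD+allantoin 4, 5 or 6 (adjusted p = 0.0896, 0.0868 and 0.0814), and that of Slc38a2 without HFD+allantoin 4 or 5 (adjusted p = 0.0926 and 0.0841). Slc1a5 also lost its call with limma-voom (adjusted p = 0.119) and was given no adjusted p by DESeq2, and Slc38a2 lost its call with library size scaling (log2 fold change -0.58, adjusted p = 0.142).

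Of 13 cytosolic tRNA synthetase and related genes, Cars fell from 49.7, 27.3 and 28.8 CPM to 14.1, 14.6 and 14.3 CPM (log2 fold change -1.30, adjusted p = 0.00783), Sars by 0.84 on the log2 scale (adjusted p = 0.00938), and Iars rose by 0.77 (adjusted p = 0.0297). Of 10 other targets, Cebpb, the C/EBP partner of ATF4, fell from 272, 242 and 258 CPM to 87.6, 106 and 120 CPM (log2 fold change -1.30, adjusted p = 0.0034), and the angiogenic factor Vegfa fell by 1.05 on the log2 scale (adjusted p = 0.00971). The calls of Slc6a9, Cars and Cebpb held in all 15 alternatives, whereas Sars lost its call without HFD+allantoin 4 or 5 (adjusted p = 0.0537 and 0.0527), Vegfa without HFD+allantoin 4 (adjusted p = 0.0533) and Iars without any 1 library other than HFD 3 (adjusted p from 0.0591 to 0.131). Library size scaling also ended the calls of Sars (adjusted p = 0.113) and Vegfa (adjusted p = 0.0569). With the length and GC trend removed Cebpb was at -0.71 (adjusted p = 0.0457), and with library size scaling Cars was at -0.85 (adjusted p = 0.0159).

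**Figure D5:**
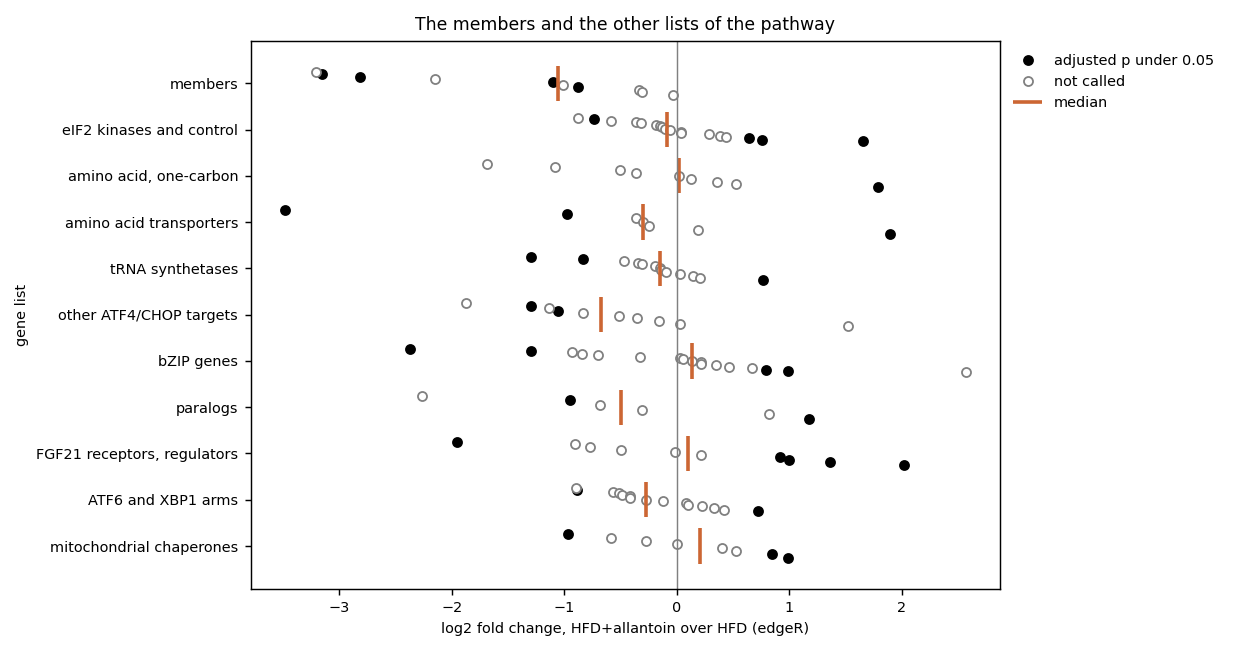
Log2 fold change of HFD+allantoin over HFD for every tested gene of the members and the related lists, 1 point a gene with called genes marked and the list median as a bar. The member median is -1.05, and the medians of the other lists lie between -0.67 and 0.20.

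Among bZIP genes, which pair with or resemble ATF factors, 2 of 17 were called higher and 2 lower: Atf6, the membrane-bound sensor of the endoplasmic reticulum, was at 25.7 to 33.7 CPM in HFD and 55.4 to 57.0 CPM in HFD+allantoin (log2 fold change 0.99, adjusted p = 0.00537) and Atf1 rose by 0.79, while Cebpb and Batf3 fell. The 23.5% of bZIP genes called was near the 24.3% of all genes. Atf1 lost its call without any 1 library other than HFD 3 (adjusted p from 0.0735 to 0.117), and Batf3 without HFD 1 or any allantoin library (adjusted p from 0.0549 to 0.0984). The 15 genes of the ATF6 and XBP1 arms had 1 call each way (13.3% called), Dnajc3 higher and Sec61b lower, and a median of -0.27. The Dnajc3 call was lost without any 1 library other than HFD 3 (adjusted p from 0.0653 to 0.123). Among relatives of the members, Sesn3 rose by 1.18 on the log2 scale (adjusted p = 0.00445), unlike Sesn2, and Asnsd1 fell by 0.95 (adjusted p = 0.0201), a call lost without HFD 2 or HFD+allantoin 4 or 5 (adjusted p = 0.0515, 0.0653 and 0.0864). The difference between Sesn3 and Sesn2 was not tested. Sesn1, Trib1, Trib2 and Chac2 were not called, and 33.3% of the 6 tested relatives were. Relative to its mean of the 6 libraries, log2 CPM of Sesn1 was -0.78 to 0.07 in HFD and 0.24 to 0.59 in HFD+allantoin. Of 8 mitochondrial chaperone and protease genes, Hspa9 (log2 fold change 0.99) and Yme1l1 (0.85) rose and Clpp fell by 0.96 (37.5% called). Hspa9 lost its call without HFD 2 or any allantoin library (adjusted p from 0.0745 to 0.117), and Clpp without HFD+allantoin 5 (adjusted p = 0.0529). Library size scaling also ended the calls of Asnsd1, Sec61b and Clpp (adjusted p = 0.124, 0.0843 and 0.0606), and removal of the length and GC trend that of Hspa9 (adjusted p = 0.0502).

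Around Fgf21, its co-receptor gene Klb rose from 6.55, 9.09 and 8.53 CPM to 19.1, 23.7 and 19.5 CPM (log2 fold change 1.36, adjusted p = 0.00403). Ppara, the fasting regulator that induces Fgf21, rose from 39.1, 27.4 and 18.9 CPM to 109, 146 and 91.4 CPM (2.02, adjusted p = 0.00389). Mlxipl, which encodes the carbohydrate-responsive factor ChREBP that also induces Fgf21, fell from 475, 187 and 261 CPM to 88.5, 82.2 and 67.9 CPM (-1.95, adjusted p = 0.00513). The 2 regulators thus changed in opposite directions. Rxra, the partner of PPARα, rose by 0.92 on the log2 scale (adjusted p = 0.00787). Ppargc1a, a coactivator, was at 3.36 to 5.18 CPM in HFD and 6.82 to 9.52 CPM in HFD+allantoin (adjusted p = 0.0343), a call lost without any 1 library other than HFD 3 (adjusted p from 0.0684 to 0.146) and with the length and GC trend removed (adjusted p = 0.0543). The receptor genes Fgfr1 to Fgfr4, at log2 fold changes of -0.90, -0.02, -0.77 and -0.50, did not pass. The calls of Klb, Ppara, Mlxipl and Rxra held in all 15 alternatives.

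Likeness to each member was measured by Pearson's r of log2 CPM over the 6 libraries. Differences in depth and composition between those libraries act on every gene at once. The comparison was made among protein-coding genes averaging 1 CPM or more. The genes most like each member by this measure were Dusp6 for Atf3 (r = 0.994), Sfpq for Atf4 (0.996), Arfrp1 for Atf5 (0.997), Polr3d for Ddit3 (0.997), Cdk5rap3 for Trib3 (0.988), Tyw3 for Asns (0.997), Nudt16l1 for Chac1 (0.983), Amigo3 for Fgf21 (0.998), Ifi27l2b for Gdf15 (0.999) and Tubgcp6 for Sesn2 (0.994). With 6 points, many genes came this close: r was above 0.9 for 847 genes against Atf5 and 22 against Chac1. Between members, r was 0.97 for Atf4 and Ddit3, 0.83 for Fgf21 and Gdf15 and -0.49 for Atf3 and Asns.

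Markers of other liver cells differed between the groups beside these results. Of 7 macrophage markers 3 rose and none fell, and their summed level was 106 to 255 CPM in HFD and 300.3 to 339 CPM in HFD+allantoin. Of 7 stellate cell markers 5 rose and none fell, with sums of 129 to 189 CPM and 320.1 to 360.5 CPM. None of 6 endothelial markers was called (sums of 69.1 to 132 and 116 to 183 CPM). Of 7 hepatocyte markers 2 rose (Apob, Cps1) and 2 fell (Apoa1, Ttr), with sums of 86119 to 87796 and 72078 to 101363 CPM. Of 3 tested cholangiocyte markers Sox9 fell, and all 6 listed summed to 34.5 to 159 and 21.9 to 76.8 CPM, highest in HFD 3. Of 6 adipocyte markers 2 were tested and neither was called, with sums of 3186 to 4200 and 2509 to 3807 CPM. The sum was lowest among HFD libraries in HFD 2. It does not follow Adipoq and Plin1, which were high in HFD 2 but far below the sum in level. Lep was at 0 in every library but HFD 2. Of 6 leukocyte markers 3 were tested and none was called, with sums of 17.8 to 26.2 and 14.8 to 21.8 CPM. Of 7 pancreas and muscle markers 1 was tested and not called, with Ckm and Myh4 at 0 throughout. Of the tested markers, 42.9% were called for macrophages, 71.4% for stellate cells, 57.1% for hepatocytes and 33.3% for cholangiocytes. Among all genes tested, 24.3% were called either way. Several marker calls did not hold when 1 library was left out. Apob and Cps1 lost theirs without any 1 library other than HFD 3 (adjusted p from 0.0724 to 0.134 and from 0.0528 to 0.148) and with the length and GC trend removed (adjusted p = 0.0558 and 0.0593). Ttr lost its call without HFD+allantoin 4 or 5 (adjusted p = 0.097 and 0.102) and with library size scaling (adjusted p = 0.251). Of the 3 macrophage calls, Cd5l was lost without HFD+allantoin 5 or 6 (adjusted p = 0.0617 and 0.0559) and Vsig4 without HFD+allantoin 4, 5 or 6 (adjusted p = 0.0608, 0.0556 and 0.0647), and Adgre1 held. Of the 5 stellate cell calls, Colec11 was lost without HFD+allantoin 4 or 5 (adjusted p = 0.0533 and 0.0527). The members' 4 calls were the same in number without HFD 2, the library where Adipoq and Plin1 were high. The part of these cell types in the members' values was not tested.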

How the data were processed

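Liver RNA of 3 HFD and 3 HFD+allantoin mice was measured by RNA-seq. The authors deposited raw read counts per gene, unnormalised, and per the labels the genome build was GRCm38 (mm10). The aligner, the counter and the use of strand are not given in the sources used here. Counts of 54961 entries were read, and 429 without an Ensembl identifier (0.197% to 0.306% of counts) stayed out of library sizes and tests. Symbols and exon lengths came from GENCODE M21 (54495 of 54532 identifiers matched), and promoters from RefSeq GRCm38.p6.

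Genes were filtered by filterByExpr, scaled by TMM and tested with edgeR 4.0.16's quasi-likelihood test (glmQLFit, glmQLFTest, R 4.3.3) without covariates, with Benjamini-Hochberg adjustment over 12795 genes and calls at 0.05. The script was tested on simulated data. log2 CPM used a prior count of 2. Alternatives were other scalings, DESeq2 1.42.0, limma-voom (limma 3.58.1), other count filters, removal of a length and GC trend, leaving out the mitochondrial chromosome, and leaving out each library. The 10 members and the lists were chosen with earlier results of these data known. All members were named. From the other lists, at most 5 called genes a list by smallest p were named. So were the receptors, kinases, phosphatase subunits and tested paralogs tied to a member, and the gene most like each member. Exceptions are marked where they stand. Genes on no list are not described.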

Additional observations from a re-analysis of the deposited data

How the results depend on the processing

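The count of members called lower was 4 and fell to 2 with library size scaling, to 2 with the length and GC trend removed, and to between 0 and 4 when 1 library was left out (0 without HFD+allantoin 5), while it rose to 7 without the filter on low counts. In that fit the SE was 0.24 for Atf3 and 0.26 for Gdf15, against 1.46 and 0.91 in the main fit. The edgeR adjusted p of Atf3 went from 0.138 to 2.42e-36, although its groups overlapped. The added calls thus came with smaller SEs and not with larger changes. No member was called higher in any of the 15 alternatives. The member median of -1.05 ranged from -1.45 to -0.81 when 1 library was left out, and was -0.63 with library size scaling and -0.73 with the length and GC trend removed. Genes called higher and lower numbered 1446 and 1666, and 3162 and 674 with library size scaling, which raised the median of all genes by 0.41 on the log2 scale. When 1 library was left out they numbered 460 to 1773 and 564 to 2008. The other ATF4 targets called higher numbered 3, 5 with library size scaling and 1 to 3 when 1 library was left out. Those called lower numbered 6, 3 with library size scaling, 11 without the filter and 2 to 10 when 1 library was left out.

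When 1 library was left out, the log2 fold change ran from -4.47 to 1.37 for Atf3, from -0.57 to 0.64 for Trib3, from -0.56 to 0.13 for Chac1 and from -0.55 to 0.10 for Sesn2. The sign turned for Atf3 without HFD 3, for Trib3 without HFD 1, HFD+allantoin 5 or HFD+allantoin 6, for Chac1 without HFD 3 or HFD+allantoin 5, and for Sesn2 without HFD 1. It also turned with library size scaling for Trib3 (0.46), Chac1 (0.0762) and Sesn2 (0.13), and for Trib3 with the length and GC trend removed (0.23), limma-voom (0.0367) and no filter (0.0108). None of these turned values belonged to a called member. DESeq2 gave Atf3 no adjusted p. Library size scaling and removal of the length and GC trend each ended 2 member calls and limma-voom ended 1, with the values given beside Atf4, Atf5 and Fgf21. The cause of these changes was not tested. A leave-one-out fit also makes a group smaller, so the weight of that library's values and the loss of a replicate cannot be told apart. No paired analysis was possible because the labels number HFD 1 to 3 and HFD+allantoin 4 to 6, so the groups share no replicate number. With 6 to 44 raw counts of Asns and 12 to 36 of Fgf21 in the HFD+allantoin libraries, counting error is larger for these low genes than for the abundant members. The share of their spread that comes from depth was not tested.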
